A study of Mus musculus with 5 samples.

Results

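The genes described here encode the membrane of the red cell and its attachment to the skeleton beneath it: Slc4a1, Rhag, Ermap, Epb42, Tspo2, Mfsd2b, Ank1 and, as the receptor that erythroid progenitors depend on, Epor. They were chosen by name on their known place in the red cell and on their measured values on these 5 arrays, and all of their probe sets were taken. These were 15 of the 45101 probe sets, for 8 of 18193 genes with a probe set of their own. On 7 of the genes both the ITD613 and the ITD78 array read above each of the ITD598, ITD602 and ITD611 arrays, as they did on 19.8% of all genes compared. The exception was Epor, which stayed within 0.16 (log2) over the 5 arrays.

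The RNA came from 32D cells, a mouse myeloid progenitor line that normally needs interleukin-3, stably transduced by retrovirus with a FLT3 receptor carrying an internal tandem duplication (ITD). The 5 constructs were ITD613, ITD78, ITD598, ITD602 and ITD611, with 1 Affymetrix expression array each. The labels do not say what the construct numbers mean, whether FLT3 was of mouse or human origin, or whether each line was a clone or a pool. What the groups share is the 32D background, 3 h of starvation and 1 h with a tyrosine kinase inhibitor (TKI) that the labels do not name, so there is no array here of cells without a construct or without the inhibitor. The title of the ITD602 array carries another date-like string than the others, and the spiked-in bioB control read between 5.74 and 6.12 on its 3 probe sets there, against 2.05 to 2.95 on the other arrays. For that array, construct and run cannot be told apart.

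As background, the red cell membrane is tied to a spectrin network by protein bridges. Band 3, the anion exchanger encoded by Slc4a1, binds ankyrin (Ank1) and protein 4.2 (Epb42) and sits beside the Rh-associated glycoprotein (Rhag), and ankyrin in turn binds spectrin. A separate bridge joins glycophorin C to protein 4.1, actin and adducin. Most of these genes are switched on as erythroid progenitors mature, under GATA1 and KLF1, while erythropoietin acts earlier, through its receptor, to keep progenitors alive.

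The start regions of the members are shown for the letters that those 2 factors are known to bind. RefSeq windows of 300 bases (250 before the start site and 50 from it on; GRCm38.p6) were available for 6 members and were searched on both strands for TGATAA and AGATAA, forms of the GATA motif, and for CACCC, the core of the motif bound by KLF1. Of these windows 4 are printed 5′ to 3′ on the strand of the gene, those of Rhag, Ermap and Epor because they hold both kinds of motif and that of Mfsd2b because it holds CACCC alone, and capitals mark the matches. On the opposite strand TGATAA reads as TTATCA, likewise AGATAA reads as TTATCT, while CACCC reads as GGGTG.
Rhag (chr17:40810899-40811198, + strand): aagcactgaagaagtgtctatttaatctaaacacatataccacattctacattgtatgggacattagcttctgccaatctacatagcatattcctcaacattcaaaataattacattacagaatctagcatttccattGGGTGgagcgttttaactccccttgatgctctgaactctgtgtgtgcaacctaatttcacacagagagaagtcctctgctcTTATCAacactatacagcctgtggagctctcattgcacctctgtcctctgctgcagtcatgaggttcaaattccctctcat
Ermap (chr4:119189946-119190245, - strand): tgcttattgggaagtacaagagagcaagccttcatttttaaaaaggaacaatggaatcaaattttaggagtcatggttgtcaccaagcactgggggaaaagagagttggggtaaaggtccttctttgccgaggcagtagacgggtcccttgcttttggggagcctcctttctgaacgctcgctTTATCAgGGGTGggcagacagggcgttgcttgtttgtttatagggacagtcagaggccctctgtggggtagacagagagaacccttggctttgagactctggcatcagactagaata
Mfsd2b (chr12:4874310-4874609, - strand): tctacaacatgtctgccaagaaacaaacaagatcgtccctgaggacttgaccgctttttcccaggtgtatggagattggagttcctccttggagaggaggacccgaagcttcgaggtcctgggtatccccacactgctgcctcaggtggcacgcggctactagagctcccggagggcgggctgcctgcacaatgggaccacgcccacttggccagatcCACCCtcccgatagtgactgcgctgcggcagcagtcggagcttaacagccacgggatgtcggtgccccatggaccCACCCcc
Epor (chr9:21963527-21963826, - strand): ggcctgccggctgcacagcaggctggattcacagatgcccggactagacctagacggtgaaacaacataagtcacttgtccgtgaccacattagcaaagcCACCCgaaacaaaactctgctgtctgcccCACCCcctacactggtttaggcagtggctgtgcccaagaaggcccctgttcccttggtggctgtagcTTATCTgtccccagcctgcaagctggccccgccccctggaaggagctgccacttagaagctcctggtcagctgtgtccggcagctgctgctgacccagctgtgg

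Rhag had TGATAA beginning 31 bases before the start site and CACCC 112 bases before it. In Ermap the same 2 motifs lay next to each other, at 67 and 60 bases before the start site. Mfsd2b had 2 CACCC matches and no GATA match, and Epor had AGATAA at 54 bases and CACCC at 150 and 121 bases before the start site. Of the windows not printed, that of Epb42 held AGATAA at 226 bases and that of Tspo2 held CACCC at 27 bases before the start site. In all, 4 of the 6 windows held a GATA match, against 18.6% of 32851 windows of the same length, and 5 of 6 held CACCC, against 57.5%. These matches are letters in a window and not measured binding. Whether any match bears on the level of its gene was not tested.

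All values below are the authors' log2 RMA values, in which a difference of 1 is 2-fold. With 1 array per construct there are no replicates, nothing was tested, and a gene is called higher or lower on an array where it lay at least 1 (log2) beyond every array it is compared with. Values up to 3.74 lie in a range where 100 or more probe sets of an array share a value, so differences that reach into this range cannot be sized. An SD of the other arrays is a spread between constructs. A gene is stood for by its probe set with the highest mean, unless others are named. The members were picked from these same arrays, so all their differences are a description.

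**Figure D1:**
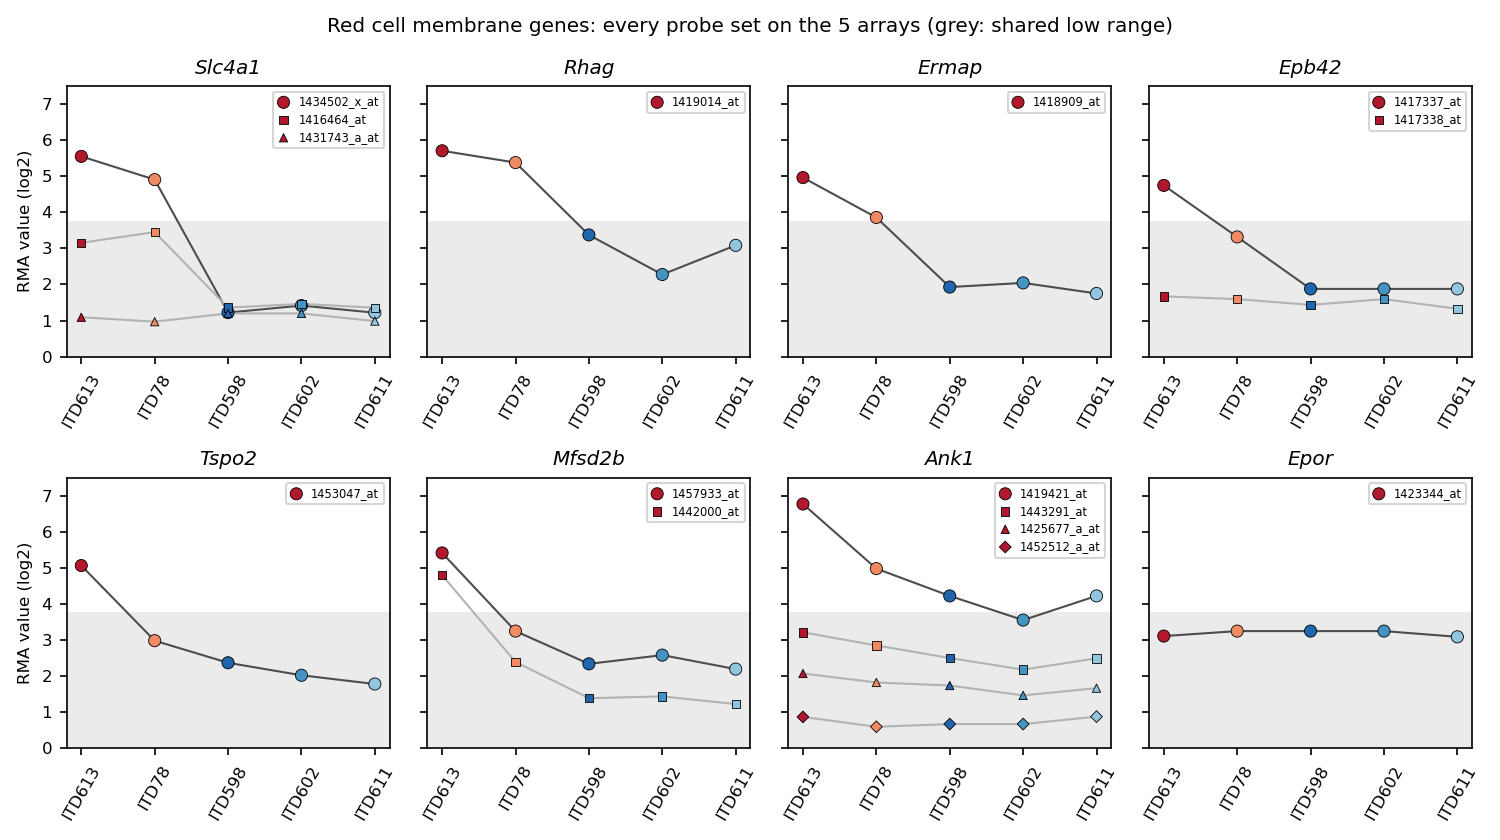
Log2 RMA value (vertical axis) of each probe set of the 8 genes on the ITD613, ITD78, ITD598, ITD602 and ITD611 arrays. Larger symbols joined by dark lines are the probe sets that stand for the gene, and the grey band is the range up to 3.74 with shared values. On ITD613 7 genes lie above the band, Slc4a1, Rhag, Ermap and Ank1 also on ITD78, and Epor lies inside it on all 5 arrays.

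Mfsd2b, Tspo2, Ank1, Epb42 and Ermap, 5 of the 8 members, were at least 2-fold higher on ITD613 than on every other array, and none was lower. Over all 9621 genes that passed the filter on low values, 1.31% were higher and 0.925% lower by that rule. Without the ITD78 array 7 members and 271 genes were higher, in place of 5 and 126. The members' median difference between ITD613 and the mean of the other 4 arrays was 2.55 (log2), or 1.42 with low values raised to 3.74, and that of all genes kept was 0.01. Ermap was the nearest member inside the 2-fold rule, 1.10 above ITD78, and Slc4a1 the nearest outside it, 0.64 above ITD78. All 8 members passed the filter, but Slc4a1, Ermap, Epb42, Tspo2 and Mfsd2b passed it through ITD613 and ITD78 alone, so these 5 had to differ.

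Band 3 and its Rh partner were high on both ITD613 and ITD78. Slc4a1, the chloride and bicarbonate exchanger that is the most abundant integral protein of the red cell membrane, read 5.55 on ITD613 and 4.91 on ITD78, against 1.22 on ITD598, 1.41 on ITD602 and 1.22 on ITD611. Both arrays stood clear of the other 3, whose values lay within 0.20 of each other. Rhag, which carries ammonia and holds the Rh proteins in the membrane, read 5.70 on ITD613 and 5.38 on ITD78, against 3.37 on ITD598, 2.28 on ITD602 and 3.08 on ITD611. Between ITD613 and ITD78 the 2 genes differed by only 0.64 and 0.33, less than 2-fold. Rhag was also the only member that differed at least 2-fold among ITD598, ITD602 and ITD611 (range 1.10; 0.405% of all genes), with ITD602 lowest and all 3 values in the low range.

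The 3 probe sets of Slc4a1 differed. The values above come from probe set 1434502_x_at, whose suffix marks probes that may bind other transcripts. Probe set 1416464_at read 3.15 on ITD613 and 3.45 on ITD78, against 1.36, 1.46 and 1.35 on ITD598, ITD602 and ITD611. It separated the same 2 arrays from the other 3, but with ITD78 above ITD613, and its values lie in the low range throughout. The third, 1431743_a_at, read between 0.97 and 1.20 on all arrays and separated nothing. Which of ITD613 and ITD78 had more Slc4a1 is therefore not settled by these arrays.

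The linker genes Ank1 and Epb42 were highest on ITD613. Ank1, which encodes the ankyrin that ties band 3 to spectrin, read 6.77 on ITD613, against 4.97 on ITD78, 4.22 on ITD598, 3.55 on ITD602 and 4.22 on ITD611. It is the one member read above 3.74 on 4 arrays, so its 1.79 (log2; 3.46-fold) over ITD78 can be sized. Epb42, whose protein 4.2 binds both band 3 and ankyrin, read 4.75 on ITD613 and 3.32 on ITD78, against 1.88 on ITD598, ITD602 and ITD611 alike. ITD613 lay 1.43 above ITD78, but ITD78 and the shared 1.88 are values of the low range, so neither distance can be sized.

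Neither linker gene showed this on all of its probe sets. Ank1 probe set 1443291_at read 3.21 on ITD613, 2.85 on ITD78, 2.50 on ITD598, 2.18 on ITD602 and 2.49 on ITD611, in the same order but within the low range. Of the other 2 Ank1 probe sets, 1425677_a_at ran between 1.46 and 2.07 with ITD613 highest, and 1452512_a_at between 0.59 and 0.87 with ITD611 highest. The second Epb42 probe set, 1417338_at, stayed between 1.33 and 1.67. Both linker genes fell short of 2-fold when their probe sets were averaged, with 0.67 for Ank1 and 0.75 for Epb42 between ITD613 and the nearest array.

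Ermap, Mfsd2b and Tspo2 are membrane proteins with no part in the spectrin attachment, and each was at least 2-fold higher on ITD613 than on the other arrays. Ermap, a butyrophilin-like protein of erythroblasts that carries the Scianna blood group in humans, read 4.96 on ITD613 and 3.86 on ITD78, against 1.93 on ITD598, 2.04 on ITD602 and 1.75 on ITD611. It formed 3 steps: ITD613, then ITD78, then the remaining arrays within 0.29 of each other.

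Mfsd2b, the exporter of sphingosine-1-phosphate from red cells and platelets, read 5.41 on ITD613, against 3.24 on ITD78, 2.34 on ITD598, 2.58 on ITD602 and 2.19 on ITD611. Its second probe set, 1442000_at, read 4.79 on ITD613, against 2.39, 1.38, 1.43 and 1.22 on ITD78, ITD598, ITD602 and ITD611. The 2 probe sets gave the same order of arrays, and ITD613 lay 2.17 and 2.41 above ITD78. Both distances reach into the low range. Mfsd2b was the one member with 2 probe sets past 2-fold.

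Tspo2, a cholesterol-binding relative of the mitochondrial translocator protein found in erythroid membranes, read 5.06 on ITD613, against 2.98 on ITD78, 2.37 on ITD598, 2.02 on ITD602 and 1.78 on ITD611. Only ITD613 was above the low range, and its distance of 2.08 from ITD78 cannot be sized either. Raising every value below 3.74 to that level left ITD613 ahead by 1.67 for Mfsd2b, 1.32 for Tspo2, 1.79 for Ank1, 1.10 for Ermap and 1.01 for Epb42. The same 5 members therefore stayed past 2-fold, Epb42 barely.

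Epor did not share this pattern. The erythropoietin receptor gene read 3.11 on ITD613, 3.24 on ITD78, 3.24 on ITD598, 3.24 on ITD602 and 3.08 on ITD611. ITD613 was 0.14 below ITD78, and no pair of arrays was 2-fold apart. Its single probe set lies in the low range, where a true difference in the transcript may not be read.

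How far ITD78 shared the levels of ITD613 varied among the members. Taking the log2 step from the mean of ITD598, ITD602 and ITD611 up to ITD613 as 100%, ITD78 stood at 88.3% of it for Rhag and 84.9% for Slc4a1. It stood at 63.8% for Ermap and 50.2% for Epb42, and at 35.4% for Ank1, 30.7% for Tspo2 and 28.8% for Mfsd2b. Slc4a1 and Rhag were thus high on both arrays, whereas Ank1, Tspo2 and Mfsd2b were mainly high on ITD613. With low values raised to 3.74 the places were 83.4% for Rhag, 64.4% for Slc4a1, 33.8% for Ank1 and 9.62% for Ermap, and 0 for the other 3, which ITD78 does not lift out of the low range.

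Counted by the 2-fold rule, 4 members, Slc4a1, Rhag, Ermap and Epb42, were higher on ITD78 than on ITD598, ITD602 and ITD611 each, as were 0.426% of all genes (41 genes, and 62 without the ITD598 array). The distance was 3.49 for Slc4a1, 2.01 for Rhag, 1.81 for Ermap and 1.44 for Epb42, in each case from values of the low range. With low values raised to 3.74 it was 1.64 for Rhag and 1.17 for Slc4a1, still past 2-fold, 0.12 for Ermap and 0 for Epb42. The order with ITD613 highest and ITD78 next held for 7 of the 8 members and for 16.1% of all genes kept. The 7 include Slc4a1, whose order is the other way round on probe set 1416464_at. These counts share arrays with those for ITD613 and come from the arrays on which the members were picked.

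**Figure D2:**
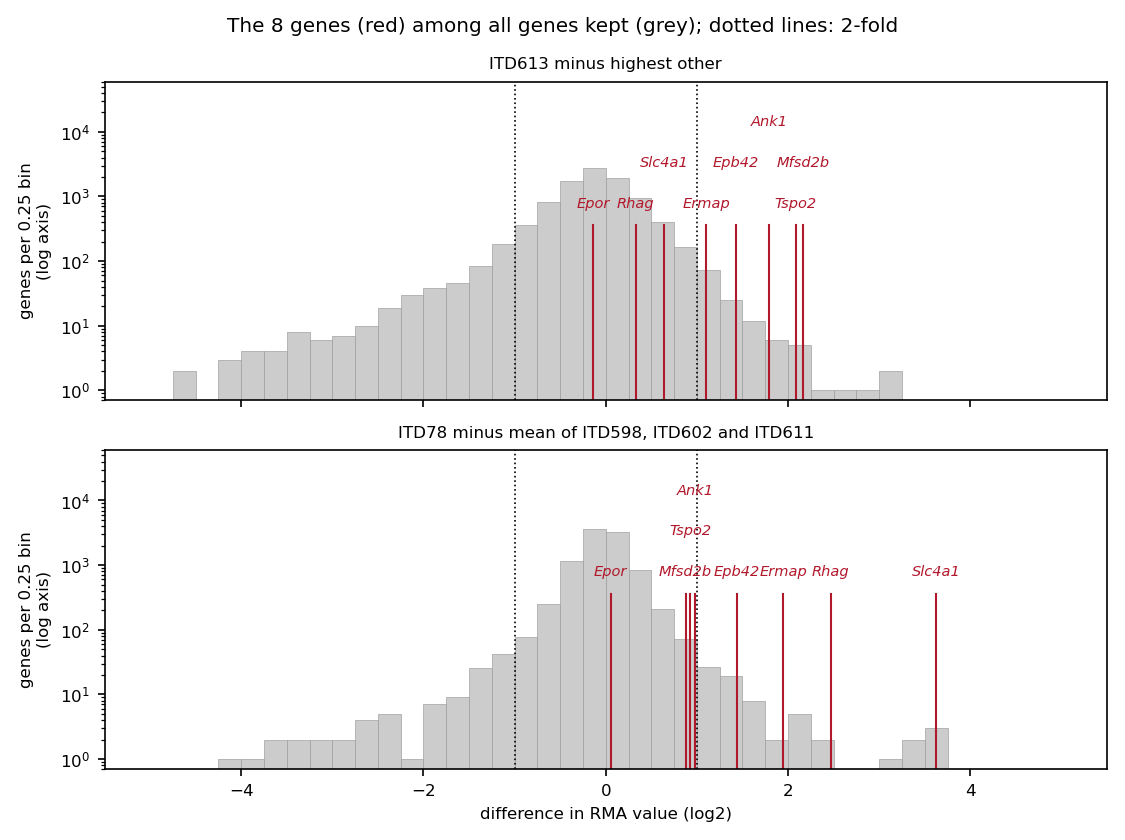
Grey bars count genes (log axis) by their log2 difference, ITD613 minus the highest other array above and ITD78 minus the mean of ITD598, ITD602 and ITD611 below, for the 9621 genes kept, and red lines mark the members. Of the members, Mfsd2b and Tspo2 lie furthest out in the upper panel and Slc4a1 and Rhag in the lower one, on values that reach into the low range, while Epor is near 0 in both.

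The rest of the spectrin and actin skeleton did not follow Ank1 and Epb42. Of 15 skeleton genes listed for comparison, 13 were on the array by name and 12 of them passed the filter. Of the 12, 0 were at least 2-fold higher or lower on ITD613 than on every other array. Over all genes kept only 1.31% were higher and 0.925% lower, so a count of 0 in so short a list says little. The median difference of the 12 between ITD613 and the mean of the other 4 arrays was -0.23 (log2), against 0.01 for all genes kept. Sptan1, the alpha spectrin of non-erythroid cells, read 6.18 on ITD613, against 6.95 on ITD78, 7.34 on ITD598, 7.62 on ITD602 and 7.43 on ITD611. It ran opposite to the members, as did the non-erythroid beta spectrin Sptbn1, with 7.91 on ITD613 against 8.59 ± 0.19 (SD, n = 4 arrays) on the others, though 4 of its 6 probe sets had this sign. The erythroid beta spectrin Sptb read 3.15 on ITD613 and between 3.21 and 3.47 on the others, in the low range.

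Add3, a gene for an adducin that caps actin filaments, was the skeleton gene nearest to the members. It read 6.20 on ITD613, 5.25 on ITD78, 5.15 on ITD598, 4.79 on ITD602 and 4.94 on ITD611, and 3 of its 4 probe sets had this direction. Its distance of 0.95 above ITD78 was just short of 2-fold. Without the ITD78 array Add3 passed the rule on the higher side and Sptan1 on the lower side. The other adducin genes, Add1 and Add2, named after their values were seen, were also highest on ITD613, with 6.39 and 4.73 there against at most 6.05 and 4.12 on another array. The tropomyosin genes Tpm1 and Tpm3 and Actb, the cytoplasmic actin, were lower on ITD613 by 0.53, 0.29 and 0.34 against the mean of the others, less than 2-fold. For Tpm1 2 of 4 probe sets and for Actb 1 of 2 had that sign.

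Other red cell membrane genes were more mixed. Of 23 listed, 22 were on the array by name, 14 of them above the filter. Of these 2, Kel and Icam4, were at least 2-fold higher on ITD613 than on every other array and 0 were lower. Over all genes kept 1.31% were higher and 0.925% lower. The median difference of the 14 from the other 4 arrays was 0.45. Kel, the endopeptidase that carries the Kell blood group in humans, read 7.22 on ITD613, 5.81 on ITD78, 5.17 on ITD598, 4.86 on ITD602 and 5.22 on ITD611. Icam4, an adhesion protein of erythroblasts, read 6.89 on ITD613, 5.84 on ITD78, 4.99 on ITD598, 4.71 on ITD602 and 4.77 on ITD611. Both were highest on ITD613, next on ITD78 and lowest on ITD602, at levels above the low range. Without the ITD78 array 4 of the 14 were higher and 1 was lower, the added genes being Gypc and Abcb6 on the higher side and Slc2a1 on the lower.

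Gypc, the glycophorin of the second bridge to the skeleton, read 8.32 on ITD613 and 7.77 on ITD78, against 6.78 on ITD598, 6.66 on ITD602 and 6.81 on ITD611. Like Slc4a1 and Rhag it separated 2 arrays from 3, with ITD613 only 0.54 above ITD78. Abcb6, a porphyrin transporter, read 7.43 on ITD613, 6.50 on ITD78, 5.99 on ITD598, 5.99 on ITD602 and 6.11 on ITD611. The glucose transporter gene Slc2a1 ran the other way, with 5.98 on ITD613, 6.69 on ITD78, 7.31 on ITD598, 7.43 on ITD602 and 7.31 on ITD611. Among those that varied less than 2-fold, Kcnn4, a calcium-gated potassium channel, was at 7.48 on ITD613 against 6.73 ± 0.09 on the others, and Cd47, Cd44 and Flvcr1, a heme and choline transporter gene, differed from the mean of the others by 0.16, -0.21 and 0.30. Rhd, the Rh protein held by Rhag and named here after its values were seen, read 6.04 on ITD613 and 5.82 on ITD78, against 5.28 to 5.36 on the remaining arrays.

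Genes that act with the erythropoietin receptor were not shifted together. All 8 with a probe set, of 11 listed, passed the filter. Of these 0 were at least 2-fold higher on ITD613 than on every other array and 1, Sh2b3, was lower. In so short a list these counts say little beside the 1.31% higher and 0.925% lower over all genes kept. Sh2b3, an adaptor that restrains JAK2, read 3.16 on ITD613, against 4.25 on ITD78, 4.35 on ITD598, 4.45 on ITD602 and 4.21 on ITD611. That call depends on a value in the low range and was lost with values raised to 3.74. Ptpn6, a phosphatase that switches the receptor off, read 6.30 on ITD613 against 7.37 ± 0.14 (SD, n = 4 arrays) on the others. The STAT5 genes, which carry the signal to the nucleus, were highest on ITD613: Stat5a read 4.89 there, 4.07 on ITD78, 3.35 on ITD598, 3.66 on ITD602 and 3.34 on ITD611. Stat5b read 6.28 on ITD613 against 5.41 ± 0.24 on the others. Stat5a passed the rule without the ITD78 array. Jak2, Cish, Tfr2 and Scrib differed from the mean of the others by 0.22, 0.27, 0.07 and -0.12.

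Close relatives of the members that serve other tissues fell below the filter or ranged over less than 2-fold. Of 15 listed, 12 were on the array by name, 5 of them above the filter. Of the 5, 0 were at least 2-fold higher or lower on ITD613 than on every other array (median difference -0.08). That count says little for so few genes, since over all genes kept 1.31% were higher and 0.925% lower. Slc4a2, the anion exchanger of most other cells, read 3.54 on ITD613 and 2.84 to 3.32 on the others. Tspo, the mitochondrial relative of Tspo2, read 8.10 on ITD613, 7.91 on ITD78 and 7.31 to 7.68 on the remaining arrays. The transglutaminase relatives of Epb42 differed on ITD613 from the mean of the others by -0.14 for Tgm1 and -0.08 for Tgm2. Tgm2 was highest on ITD78, with 7.34 against 6.47 to 6.84 on the other arrays. The brain and epithelial ankyrin genes Ank2 and Ank3 and the Rhag relatives Rhbg and Rhcg did not pass the filter.

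**Figure D3:**
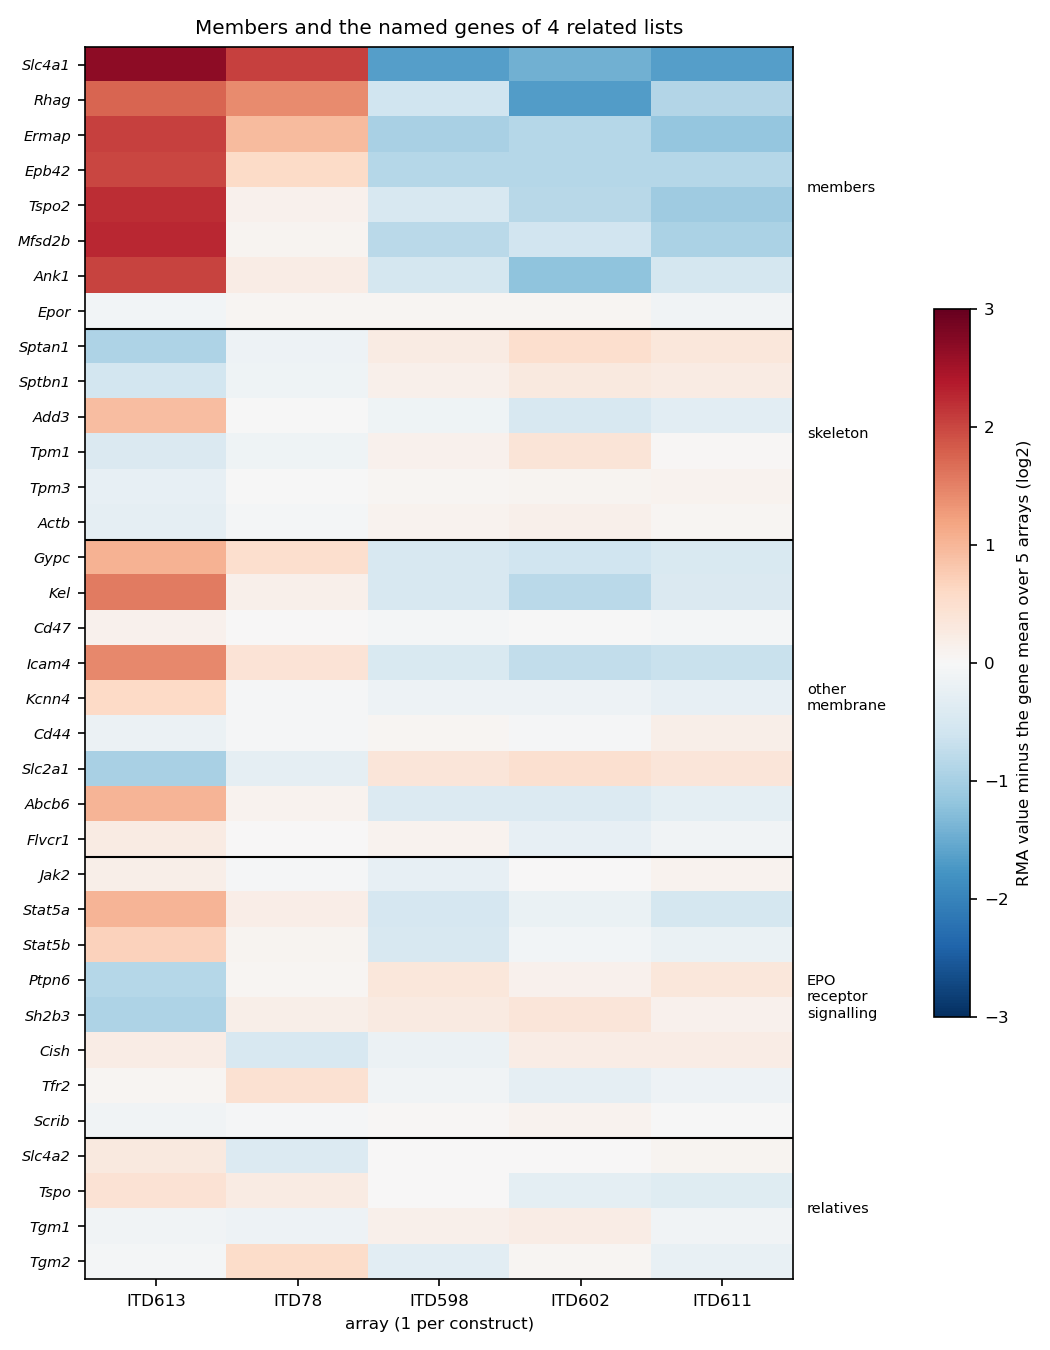
Log2 RMA value minus the gene's mean over the 5 arrays (colour) for the members and the named genes of the 4 lists, with arrays in columns. Kel, Icam4, Gypc and Abcb6 show the colours of the members on ITD613, the 2 spectrins and Slc2a1 the opposite ones, and Epor is pale throughout.

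Genes with profiles nearest to that of the members were ranked by the root mean square difference between centred log2 values over the 5 arrays. Nearest to the mean profile of the 8 members were Med9os (0.14), Pdcd4 (0.16), Cd300a (0.16), Gp2 (0.17), Stx2 (0.18), Il1bos (0.20), Klf1 (0.20), Prdx2 (0.21), Blvrb (0.22) and Narf (0.24). Med9os, Gp2 and Il1bos read under 4 on every array, and the names of Med9os and Il1bos mark transcripts opposite another gene. Klf1, the red cell transcription factor named above, read 10.01 on ITD613, 8.44 on ITD78, 7.36 on ITD598, 6.68 on ITD602 and 7.08 on ITD611. The peroxidase gene Prdx2 read 10.84, 9.65, 8.78, 8.29 and 8.41 on the same arrays, and the biliverdin reductase gene Blvrb 9.84, 8.83, 7.91, 7.34 and 7.42. These well-detected genes keep the order of Ank1, with ITD602 lowest.

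The nearest genes of single members were in part the same ones. Rhag lay nearest to the embryonic globin gene Hbb-bh1 (0.27) and to Meg3 (0.27), both read by _x_at probe sets. Slc4a1 lay nearest to Hba-x, also an embryonic globin gene (0.67), and Slc6a20a (0.69), neither close. Ermap lay nearest to Cd300a (0.24) and Slc6a20a (0.25), and Epb42 to Stx2 (0.13) and Med9os (0.15). Tspo2 (0.11) and Mfsd2b (0.20) shared Btg2, an antiproliferative gene, among their nearest, next to Stx2 (0.19) for Tspo2 and Narf (0.16) for Mfsd2b. Ank1 lay nearest to Il1bos (0.18) and Klf1 (0.20), and the level profile of Epor to Ssr4 and Elf2 (both 0.02).

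**Figure D4:**
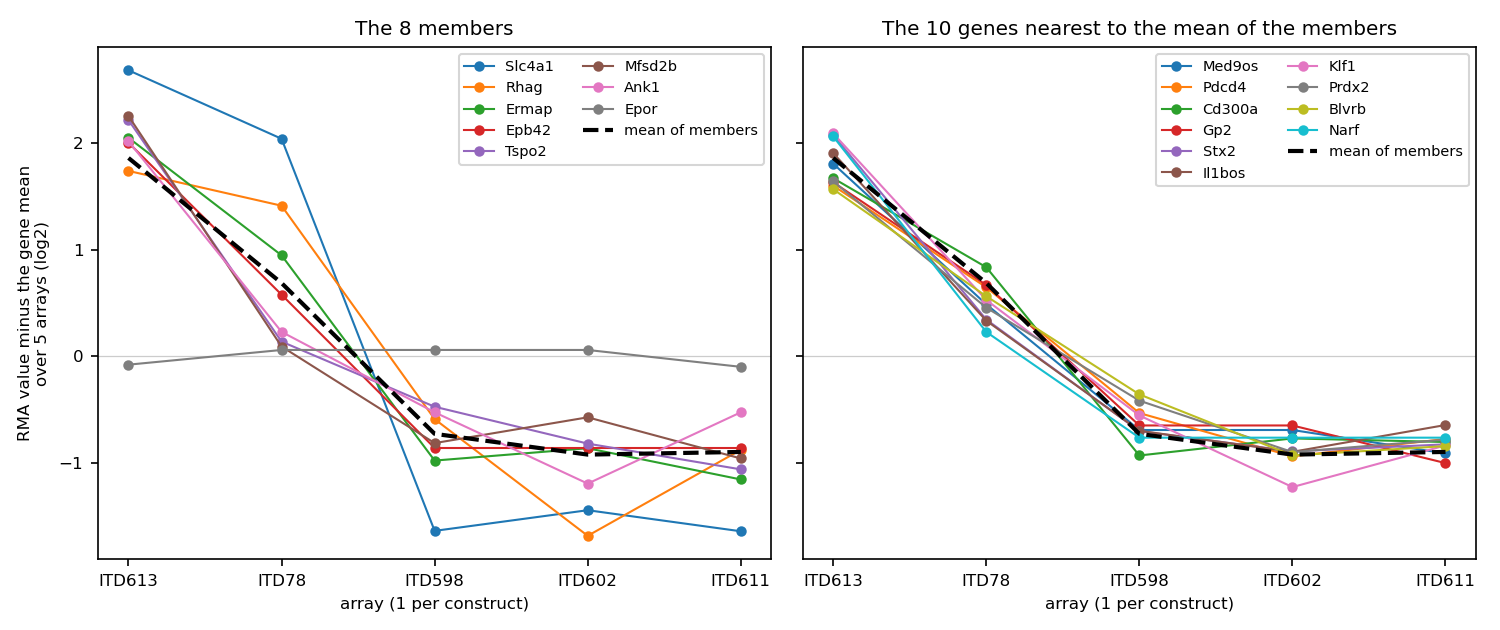
Centred log2 profiles over the 5 arrays of the 8 members (left) and of the 10 genes nearest to their mean (right), with the mean of the members dashed. Slc4a1 and Rhag stay high on ITD78, Tspo2, Mfsd2b and Ank1 drop there, and Epor is flat; all 10 neighbours are highest on ITD613 and next on ITD78.

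Erythroid markers moved with the members over the same arrays. Of 17 erythroid markers, 16 were on the array by name, 12 of them above the filter. Of these, 11 were highest on ITD613 and next on ITD78, an order shown by 16.1% of all genes kept. The list was chosen with earlier results of these data known, so this count is a description and not independent support. The list's summed linear level was 17371 on ITD613 and 11122 on ITD78, against 6604 on ITD598, 3641 on ITD602 and 5249 on ITD611. The embryonic globin genes Hbb-y, Hba-x and Hbb-bh1 carried much of this sum, with 12.92, 11.27 and 10.87 on ITD613. Hbb-y and Hbb-bh1 were each read by a probe set with the _x_at suffix, which marks probes that may bind other transcripts. Gata1 read 8.14 on ITD613, 7.01 on ITD78, 6.29 on ITD598, 5.84 on ITD602 and 6.05 on ITD611. Alas2, the erythroid enzyme of heme synthesis, the adult globin gene Hba-a1 and the carbonic anhydrase genes Car1 and Car2 stayed below the filter on all arrays. Below it Car1 read 2.19 on ITD613 and 2.65 on ITD78, against 0.77 to 1.22 on the remaining arrays. Slc4a1 on ITD613 and ITD78, by probe set 1434502_x_at alone, and Epb42 on ITD613 read above the low range. Alas2, Hba-a1, Car1 and Car2 lay in that range on the same arrays. Each of the latter was read by 1 probe set, and probe sets with several gene symbols were not used. Their low readings therefore do not show that these transcripts, adult globin among them, were absent.

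Markers of other lineages ran in several directions, and the sums below are carried by few genes. The myeloid progenitor and granulocyte list (12 of 13 with a probe set, 9 kept) summed to 393 on ITD613 and 321 on ITD78, against 1347 on ITD598, 1134 on ITD602 and 685 on ITD611. Ctsg carried much of this, with 6.24 on ITD613 and 7.42 on ITD78, against 9.09 on ITD598, 9.17 on ITD602 and 8.77 on ITD611. Prtn3 read 5.55 on ITD613 and 5.83 on ITD78, against 6.81 to 7.45 on the rest. Spi1 differed less, with 3.63 on ITD613 and 3.94 on ITD78, against 4.41 to 4.70 on the rest. S100a8, S100a9 and Ngp, genes of maturing granulocytes, ran differently: on ITD613 they lay 0.75, 0.83 and 1.01 above the mean of the other 4 arrays. S100a8 read 5.93 on ITD613 and 2.49 on ITD78, against 7.61 on ITD598, 6.65 on ITD602 and 3.98 on ITD611. Mpo and Ms4a3 read 5.18 and 4.18 on ITD613, against 4.52 and 2.63 on ITD78. On ITD611 they read 5.00 and 4.01, close to ITD613. Both lay above these on ITD598 (6.55 and 5.74) and ITD602 (6.21 and 5.05). Elane, Cebpa and Ltf were below the filter on each array.

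The macrophage list (6 of 6, 4 kept) summed to 54.7 on ITD613 and 69.3 on ITD78, against 179 to 257 on the rest. Adgre1 carried this, with 2.68 on ITD613 and 3.00 on ITD78, against 6.51 to 7.21 on the rest, while Lyz2 stayed between 4.74 and 5.02. The platelet list (7 of 9, 6 kept) summed to 493 on ITD613 and 729 on ITD78, against 421 to 507, with Itga2b as its highest gene. Itga2b read 8.42 on ITD613 and 8.58 on ITD78, against 7.99 to 8.23 on the rest. Gp9 read 6.79 on both ITD613 and ITD78, against 5.26 to 5.87 on the rest. Pf4 and Selp went the other way, with 3.09 and 2.99 on ITD613, against at least 5.99 and 5.49 on each other array. Vwf read 6.56 on ITD78, against 2.96 to 3.91 on the others. The mast cell list (8 of 8, 5 kept) summed to 250.2 on ITD613 and 268 on ITD78, against 330 to 415. Its highest gene, Gata2, read 7.22 on ITD613 against 7.88 to 8.34 on the others. Fcer1a was higher on ITD613, with 3.96 against at most 0.72, a distance that reaches into the low range. Cpa3 was also highest on ITD613, with 4.56 against at most 3.66, a distance of 0.90 that is short of 2-fold. Mitf ran the other way, with 1.90 on ITD613 and 1.79 on ITD78, against 3.75 to 4.11 on the rest. Those 2 lower values lie in the low range, and 1 of 2 Mitf probe sets had this sign. Mcpt8 read 5.70 on ITD613 and 2.90 on ITD78, against 5.36 to 5.94 on the rest. The general leukocyte markers (4 of 4 kept) summed to 322 on ITD613 and 507 on ITD78, against 891 to 1083. Il3ra was level, and the other 3 read below the remaining arrays on ITD613 and ITD78, not all by 2-fold. The part of these markers in the members' levels was not tested, and in bulk RNA more cells of a type and more RNA per cell cannot be told apart.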

How the data were processed

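Total RNA of 5 cultures was hybridised to 1 array each. The authors deposited log2 values from RMA (background correction, normalization between arrays and a summary for each probe set), per the submitters' processing notes. No software, version or chip definition was given in the sources used here. That the scale is log2 was inferred from its range, -0.07 to 13.45. All 5 columns were mapped to samples by accession.

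Of 45101 probe sets, 34945 had 1 gene symbol in the platform annotation and were not controls, 932 had several and 9160 were not listed there. A RefSeq table (GRCm38.p6) served for names and renamed 0. The probe set with the highest mean stood for its gene, and 9621 genes passed a filter that asked for a value of at least the 60th percentile (2.75) on some array. Array medians ran from 1.99 to 2.06. Values shared by 100 or more probe sets made up 23.7% to 30.3% of an array and reached 3.74.

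Single arrays leave no residual degrees of freedom, so nothing was tested. Genes were described by a distance of at least 1 (log2) from the nearest other array. The precision is limited by the number of arrays. The members and lists were chosen with earlier results of these data known. Named genes were all members, list genes ranging over at least 2-fold or otherwise the 4 with the highest mean, and the nearest profiles (10 for the mean profile, 2 per member); others are said to be chosen after their values were seen, or are lineage markers given, with their values seen, to show what makes up a list's sum. Alternatives covered the summary of probe sets, low values, the filter, scaling, the size of the fold and leaving out arrays. Python 3.11.15 with pandas 2.3.3 and numpy 2.4.6 was used.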

Additional observations from a re-analysis of the deposited data

How the results depend on the processing

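No paired analysis was possible because each construct has 1 array and no result comes from a test. The count of 5 members higher on ITD613 than on every other array was 3 when probe sets were averaged and 3 at 3-fold, and ran from 5 to 7 without 1 other array each (7 without ITD78). The 4 members higher on ITD78 than on ITD598, ITD602 and ITD611 were 2 with low values raised to 3.74 and 7 at 1.5-fold, and 4 without 1 array each. The members' median difference of 2.55 was 1.86 with the mean of probe sets, 1.42 with low values raised and 2.87 against the median of the other arrays, and ran from 2.42 to 2.94 without 1 array each. Of all genes, 126 were higher on ITD613: 83 with the mean of probe sets, 221 over every probe set, 504 at 1.5-fold, 24 at 3-fold, and 129 to 271 without 1 array each. For ITD78 the 41 genes were 26 both with the mean of probe sets and with low values raised, 145 at 1.5-fold, 14 at 3-fold, and 44 to 62 without 1 array each.

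Among the lists, skeleton genes higher on ITD613 numbered 0, but 1 over every probe set or with array medians subtracted, 2 at 1.5-fold and 0 to 1 without 1 array each; lower ones numbered 0, but 1 at 1.5-fold and 0 to 1. Other membrane genes higher numbered 2, but 4 at 1.5-fold, 0 at 3-fold and 2 to 4; lower ones 0, but 1 at 1.5-fold and 0 to 1. Receptor signalling genes higher numbered 0, but 2 at 1.5-fold and 0 to 1; the 1 lower gene became 0 with the mean of probe sets, low values raised, the stricter filter or 3-fold, 2 at 1.5-fold, and stayed 1 without 1 array each. Relatives stayed at 0 in both directions. In each range the higher count is without ITD78, except for the 62 genes, which is without ITD598. Of the single members, Slc4a1 was 0.30 lower on ITD613 than on ITD78 when cross-hybridising probe set types (_x_at, _s_at) were left out. The causes were not tested, beyond the smaller or larger sets that the settings leave. Signal limits Epor and, outside ITD613 and ITD78, most other members, whose values there lie in the low range.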
